A study of Mus musculus with 5 samples.

Results

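Collagen genes encode the protein chains that wind into triple helices and build the extracellular matrix. Their binding by KAP1 and Ring1b was read from genome-wide lists of chromatin immunoprecipitation peaks made in mouse embryonic stem cells. The genes were chosen by name: every symbol in the 6 deposited gene and promoter tables that reads Col, a number, a and a number, such as Col1a1, was a member. The rule found 35 genes, of 44 collagen genes and 21031 protein-coding genes in the RefSeq table of the same genome build. Having a row in a table is what the rule used, so it is not a result, and the shares below are given over all 44 collagen genes. The 9 collagen genes without a row of their own are Col3a1, Col4a2, Col4a3, Col6a1, Col6a4, Col9a1, Col10a1, Col17a1 and Col22a1. Of these, Col4a2, Col4a3 and Col10a1 share a row that carries a neighbour's name.

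KAP1, encoded by Trim28, is a corepressor that zinc finger proteins recruit to DNA and that brings in enzymes of silent chromatin. Ring1b, encoded by Rnf2, is the catalytic subunit of Polycomb repressive complex 1, which holds many developmental genes silent in embryonic stem cells, most often at starts rich in CpG. Fibrillar collagens form the ropes of bone, skin, tendon and cartilage, whereas type IV collagens form the sheet of basement membranes. The remaining groups bind the surface of fibrils, cross the cell membrane or form short-chain networks and beaded filaments. Many are made by mesenchymal and epithelial cells after lineages have formed, and type IV collagen is made by endoderm of the early embryo.

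The data were 5 libraries, 1 for each group. KAP1 was precipitated from KAP1 fl/fl cells, either given vehicle (ethanol) or treated with 4-hydroxytamoxifen, which deletes the conditional gene. Ring1b was precipitated from vehicle-treated and tamoxifen-treated Ring1b fl/fl cells and from tamoxifen-treated KAP1 fl/fl cells. Exposure to vehicle or drug lasted 24 h and was followed by 48 h of culture, with tamoxifen for Ring1b fl/fl cells and without it for KAP1 fl/fl cells. All cells grew on irradiated mouse embryonic fibroblasts, so feeder chromatin may be present in every library. The labels name neither the driver of the recombinase nor the number of clones behind each line. KAP1 and Ring1b were therefore mapped in different lines, and a promoter with both proteins carries a peak from each line.

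Each peak list compared 1 library with another. Vehicle KAP1 was called against tamoxifen KAP1 in KAP1 fl/fl cells (82775 peaks), and vehicle Ring1b against tamoxifen Ring1b in Ring1b fl/fl cells (13516 peaks). The third list, called the knockout list here, compared Ring1b in KAP1 fl/fl tamoxifen cells with Ring1b in Ring1b fl/fl tamoxifen cells, a different line (8928 peaks). A peak's score is the authors' 10 times -log10 p, so it can order the peaks of a single list but not compare lists. In the Ring1b list the score 3100 was shared by 732 peaks, which are therefore tied. With 1 library per group there is no replicate error and no difference between conditions was tested. The labels and files used here state no read depth. Intervals are exact binomial (Clopper-Pearson, 95%) and cover counting error over genes or peaks only. The values used here give no level of KAP1 or Ring1b in a single library, so the deletions were not checked.

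The sequences that the results turn on are promoters of the type IV pairs and the extremes of CpG content, from RefSeq (GRCm38.p6), each 5′ to 3′ on the strand of its gene, from 250 bases before the start to 50 after it, with every CG in capitals. The Col4a2 window (chr8:11312555-11312854, plus strand, 33 CG) and the Col4a4 window (chr1:82586800-82587099, minus strand, 14 CG) each hold the deposited starts of both genes of their pair. The Col4a5 window (chrX:141475169-141475468, plus strand, 11 CG) and the Col4a6 window (chrX:141474027-141474326, minus strand, 3 CG) are the 2 separate starts of the third pair. Col25a1 (chr3:130180595-130180894, plus strand, 23 CG) had the highest CpG ratio of the collagen promoters with Ring1b and no KAP1 for which a sequence was available. Col3a1 (chr1:45311288-45311587, plus strand) has no row in the tables used here and no CG in the window.
Col4a2: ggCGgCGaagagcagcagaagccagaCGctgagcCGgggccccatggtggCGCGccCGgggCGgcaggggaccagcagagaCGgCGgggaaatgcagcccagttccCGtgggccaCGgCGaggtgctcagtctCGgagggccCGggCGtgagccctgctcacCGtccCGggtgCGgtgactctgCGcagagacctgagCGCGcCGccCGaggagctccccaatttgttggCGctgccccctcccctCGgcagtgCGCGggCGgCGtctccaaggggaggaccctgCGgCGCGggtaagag
Col4a4: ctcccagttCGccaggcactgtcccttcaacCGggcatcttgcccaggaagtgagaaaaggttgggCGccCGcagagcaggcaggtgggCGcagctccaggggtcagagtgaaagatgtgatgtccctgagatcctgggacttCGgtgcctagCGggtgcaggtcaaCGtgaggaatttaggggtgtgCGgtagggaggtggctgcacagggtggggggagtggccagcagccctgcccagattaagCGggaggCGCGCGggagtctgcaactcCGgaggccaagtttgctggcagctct
Col4a5: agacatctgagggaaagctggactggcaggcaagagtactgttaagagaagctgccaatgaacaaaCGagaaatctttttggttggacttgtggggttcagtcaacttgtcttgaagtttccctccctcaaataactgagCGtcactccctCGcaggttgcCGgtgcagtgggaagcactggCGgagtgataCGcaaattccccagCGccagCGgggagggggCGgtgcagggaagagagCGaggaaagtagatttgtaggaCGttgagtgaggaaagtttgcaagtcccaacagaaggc
Col4a6: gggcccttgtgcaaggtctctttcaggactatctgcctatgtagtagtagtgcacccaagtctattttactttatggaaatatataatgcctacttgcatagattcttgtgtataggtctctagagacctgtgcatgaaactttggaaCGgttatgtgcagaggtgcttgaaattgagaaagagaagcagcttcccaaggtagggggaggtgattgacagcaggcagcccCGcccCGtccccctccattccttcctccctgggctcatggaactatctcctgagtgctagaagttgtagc
Col25a1: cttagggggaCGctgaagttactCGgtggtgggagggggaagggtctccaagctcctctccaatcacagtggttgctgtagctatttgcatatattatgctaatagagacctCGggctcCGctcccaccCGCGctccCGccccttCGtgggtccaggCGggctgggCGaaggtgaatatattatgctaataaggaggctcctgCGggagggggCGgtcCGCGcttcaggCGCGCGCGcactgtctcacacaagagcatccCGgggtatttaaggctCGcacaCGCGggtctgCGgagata
Col3a1: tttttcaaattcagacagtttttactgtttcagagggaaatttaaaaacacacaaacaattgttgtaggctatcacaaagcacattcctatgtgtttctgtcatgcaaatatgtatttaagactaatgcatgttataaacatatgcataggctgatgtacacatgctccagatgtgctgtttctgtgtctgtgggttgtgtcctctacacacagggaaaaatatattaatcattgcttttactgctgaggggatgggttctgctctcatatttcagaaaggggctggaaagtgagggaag

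At promoters, which the deposited tables define as windows reaching 1 kb to either side of a transcript's start, 21 of the 44 collagen genes carried Ring1b (47.7%, interval 32.5% to 63.3%), where 25.4% of all protein-coding genes did. KAP1 was at a promoter of 17 collagen genes (38.6%, interval 24.4% to 54.5%), where 49.6% of all genes had it. In the authors' deposited tables, 11 collagen genes had both proteins (25%, interval 13.2% to 40.3%), near the 21.9% of all genes. KAP1 without Ring1b was listed for 6 collagen genes (13.6%, interval 5.17% to 27.4%), against 28.1% of all genes. Ring1b without KAP1 was listed for 10 collagen genes (22.7%, interval 11.5% to 37.8%), against 3.67% of all genes. In all, 27 collagen genes (61.4%) had a promoter row in some class, where 53.1% of all genes did. Counting also the genes that a row names only by accession, which adds Col4a2 and Col4a3 to both proteins and Col4a5 to Ring1b alone, gave 13, 6 and 11 genes, against 24.8%, 34.4% and 4.05% of all genes counted in the same way.

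Collagen genes are long, with a median of 114 kb against 17.7 kb over all genes, and 29 of them span 50 kb or more. The same counts were therefore read among the 4878 genes of that length. Ring1b without KAP1 was at the promoter of 9 of the 29 long collagen genes (31.0%), where 6.72% of all long genes had it. Ring1b in either class was at 16 of the 29 (55.2%), closer to the 43.0% of long genes. KAP1 in either class was at 9 of the 29 (31.0%), where 62.4% of long genes had it. Both proteins were at 7 of the 29 (24.1%) against 36.6%, and KAP1 without Ring1b at 2 of the 29 (6.90%) against 27.1%. A row in some class existed for 18 of the 29 (62.1%), against 68.7%. By accession the long collagen genes numbered 9 with both, 2 with KAP1 alone and 10 with Ring1b alone, against 40.3%, 32.3% and 7.44% of long genes. Among long genes, collagen promoters thus differed from the background mainly in the lower share with KAP1 and the higher share with Ring1b alone, and these shares were not tested.

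**Figure D1:**
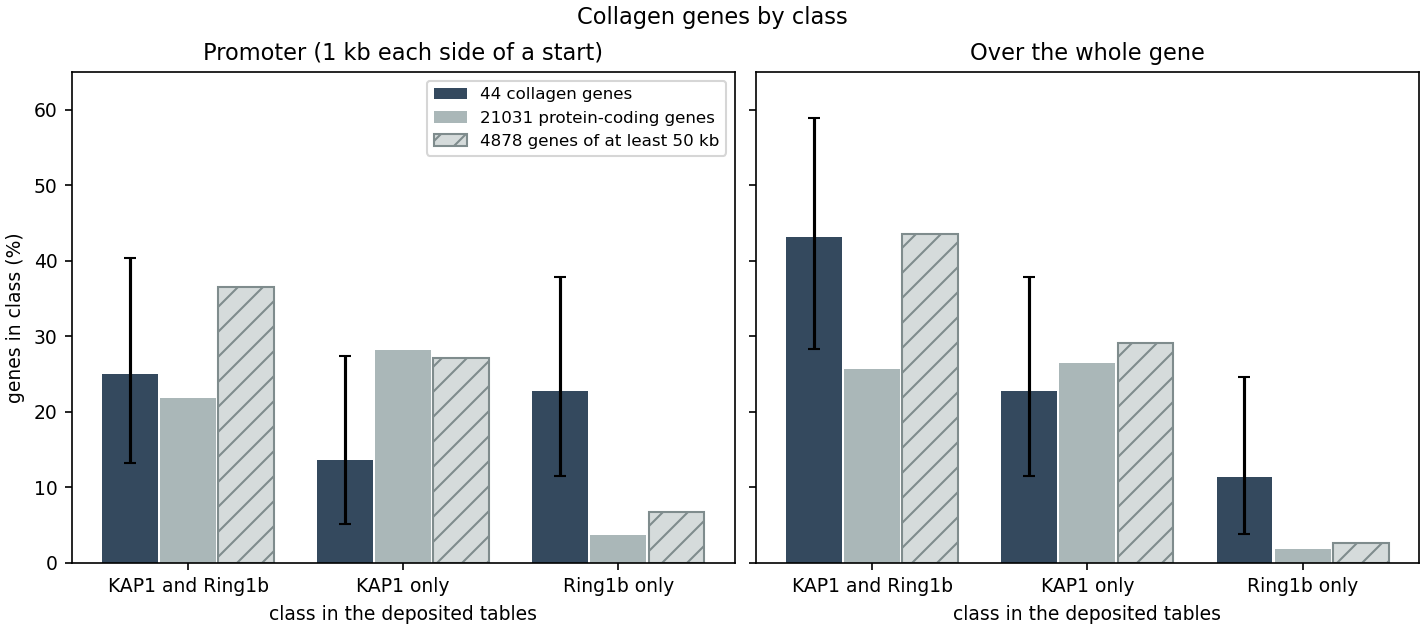
Share of genes (y axis, %) in each class of the deposited tables (x axis), at promoters on the left and over whole genes on the right, for the 44 collagen genes, all 21031 protein-coding genes and the 4878 genes of at least 50 kb. Error bars are exact 95% binomial intervals for the collagen share and cover counting error only. At promoters, Ring1b without KAP1 stands at 22.7% of collagen genes and 3.67% of all genes.

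Among the 11 fibrillar collagens, 4 promoters had both proteins, 2 had Ring1b without KAP1, none had KAP1 alone, and 5 have no promoter row. Col2a1, the chain of the main cartilage collagen, lay at chr15:97975602-98004724 and carried a Ring1b peak of score 3100, the widest of any collagen gene at 4741 bp. Its KAP1 peak scored 52.7. Col27a1, another fibrillar chain of cartilage, had Ring1b at 3100 (3076 bp wide) and KAP1 at 134. Col5a1, a chain that starts and limits the growth of type I fibrils, had Ring1b at 1446 and KAP1 at 114. In these 3 genes the Ring1b scores were far above that list's median of 116, while the KAP1 scores lay on both sides of that list's median of 96.2.

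Col5a3, another type V chain, had a Ring1b peak of 60.7, below the median of the Ring1b list, and a KAP1 peak of 171, above the median of the KAP1 list. The authors' deposited table gives 155 for the KAP1 region of Col5a3, with narrower borders than the listed peak. Col1a2, the second chain of type I collagen of bone and skin, had Ring1b at 109 and no KAP1 peak. Col11a1, which sits inside cartilage fibrils, had Ring1b at 169.5 and no KAP1 peak. Col1a1, Col3a1, Col5a2, Col11a2 and Col24a1 have no promoter row, so the chains of type I collagen fell in different classes.

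The type IV genes form 3 head-to-head pairs that transcribe away from a common region, and the tables give each pair a single joined promoter window. Col4a1 and Col4a2, whose chains form the network of nearly every basement membrane, start 2 bp apart on chromosome 8 in the deposited window (11311827 to 11313828), and their RefSeq genes overlap by 85 bp. The pair carried Ring1b at 3100 over 3116 bp (11311130 to 11314245) and KAP1 at 146 over 1873 bp (11312233 to 11314105). The Ring1b peak covered the whole window on both sides, and the KAP1 summit lay 255 bp from the Ring1b summit. The row is named Col4a1, and Col4a2 appears in it only by accession.

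Col4a3 and Col4a4, whose chains join that of Col4a5 in the filter of the kidney, start 71 bp apart on chromosome 1 (window 82585850 to 82587920), with RefSeq genes that overlap by 114 bp. The KAP1 peak scored 98.1, and the Ring1b peaks scored 167 and 71.6, side by side within the borders of the KAP1 peak. The row is named Col4a4, and Col4a3 appears in it by accession. The pairs with the closest starts thus had both proteins.

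Col4a5 and Col4a6, X-linked chains of kidney and smooth muscle basement membrane, start 1342 bp apart (window 141473077 to 141476418). A single Ring1b peak of score 321 lay between 141475022 and 141475815. It lay wholly (794 bp) inside the window of Col4a5, with its summit 91 bp before the Col4a5 start, and reached the window of Col4a6 by only 55 bp. No KAP1 peak was in the window, and the nearest was 993 kb from its middle. The pair's promoter row is named Col4a6 and its gene row Col4a5, so by symbol the pair appears as different genes in the promoter and gene tables. The letters of the 2 starts differ too: the Col4a5 sequence above has 11 CG and the Col4a6 sequence has 3.

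**Figure D2:**
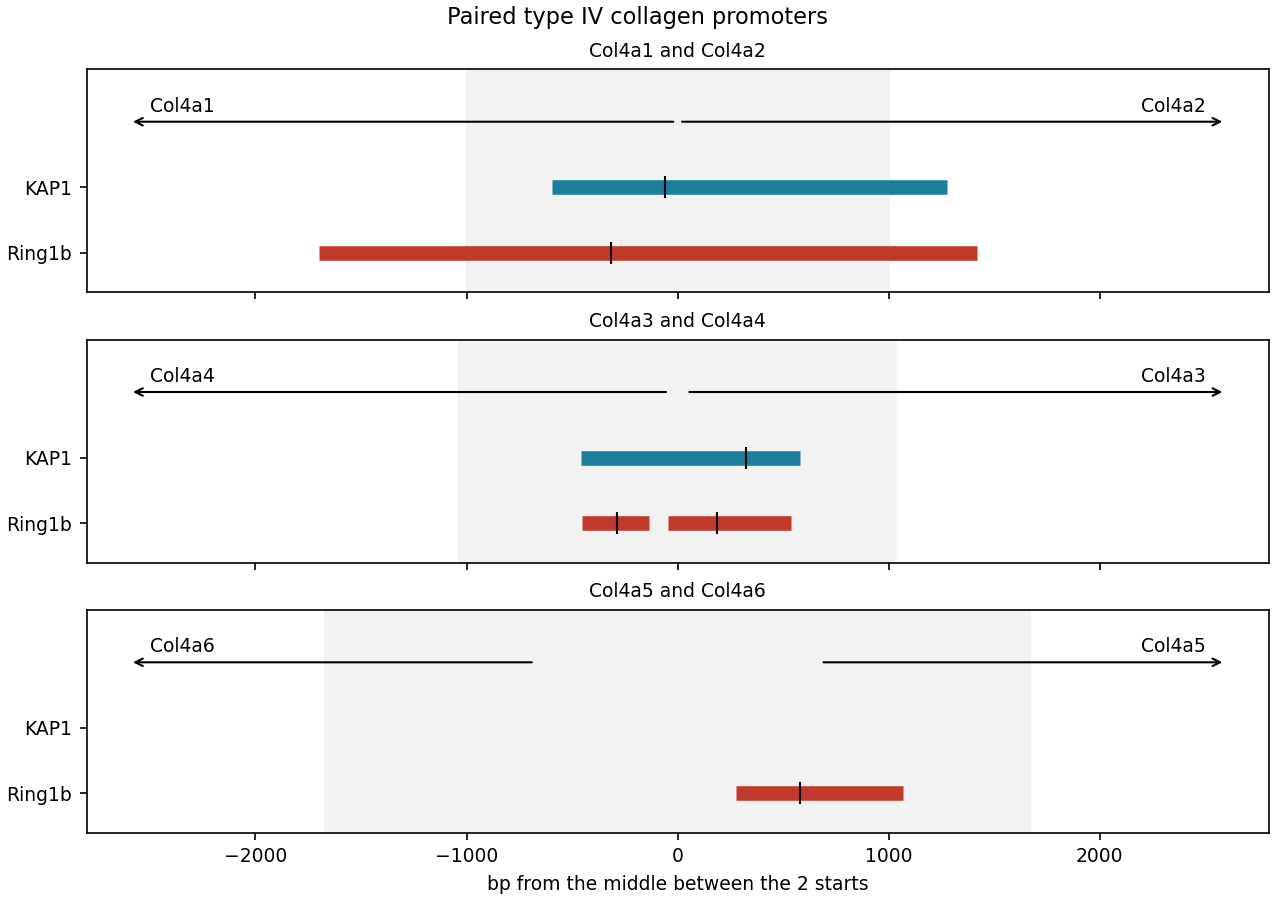
Peaks (bars, with a tick at each summit) of KAP1 and Ring1b in the vehicle lists at the 3 type IV collagen pairs, by distance in bp from the middle between the 2 starts (x axis); arrows show the direction of each gene and grey marks the deposited promoter window. Both proteins lie over the starts of Col4a1 and Col4a2 and of Col4a3 and Col4a4, and only Ring1b, on the Col4a5 side, lies at the third pair.

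In the short-chain network group, Col8a2 and Col8a1, chains of the cornea's Descemet membrane, fell in different classes. Col8a2 had Ring1b at 933 and KAP1 at 116 at its start, while Col8a1 had KAP1 alone at 53.6. Col10a1, made by hypertrophic chondrocytes, has no promoter row. Of the 6 beaded-filament genes, Col6a2 had KAP1 alone at 84.4 and Col6a6 had Ring1b alone at 105. Col6a1, Col6a3, Col6a4 and Col6a5 have no promoter row, so no type VI gene had both proteins there. The anchoring-fibril gene of skin, Col7a1, had KAP1 alone at 50.5.

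The fibril-associated (FACIT) group of 9 genes held 3 promoters with Ring1b alone, and these were among the strongest in the list. Col12a1 and Col14a1, which coat type I fibrils of dense connective tissue, both had Ring1b at 3100, over 2928 and 3033 bp. Col19a1, a rare chain of muscle and basement membrane zones, had Ring1b at 2432. None of the 3 had KAP1 at its promoter. Col9a2, which decorates cartilage fibrils, had Ring1b at 109 and KAP1 at 57.4, while its partner chain Col9a3 had KAP1 alone at 115. Col16a1 had Ring1b at 82.3 and KAP1 at 51.4, and Col20a1 had KAP1 alone at 92.6. Col9a1 and Col22a1 have no promoter row.

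Of the 4 transmembrane collagens, Col13a1, found at neuromuscular junctions, had both proteins, with Ring1b at 1286 and KAP1 at 213. Col25a1, which muscle makes and which motor axons need to reach it in mice, had Ring1b alone at 661. Col23a1 had Ring1b alone at 98.8 and 91.5 in adjacent peaks, and Col17a1, a chain of skin hemidesmosomes, has no promoter row. The multiplexins, whose ends are cut off as fragments such as endostatin, differed: Col15a1 had Ring1b at 595 and KAP1 at 233, the highest promoter KAP1 score among collagen genes, and Col18a1 had KAP1 alone at 196 and 105 at its 2 promoters. Col26a1 had Ring1b alone at 1011, and Col28a1 has no promoter row. Ring1b was at some promoter in 8 of the 9 structural groups, all but the single anchoring-fibril gene, and both proteins met at a promoter in 6 of them.

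**Figure D3:**
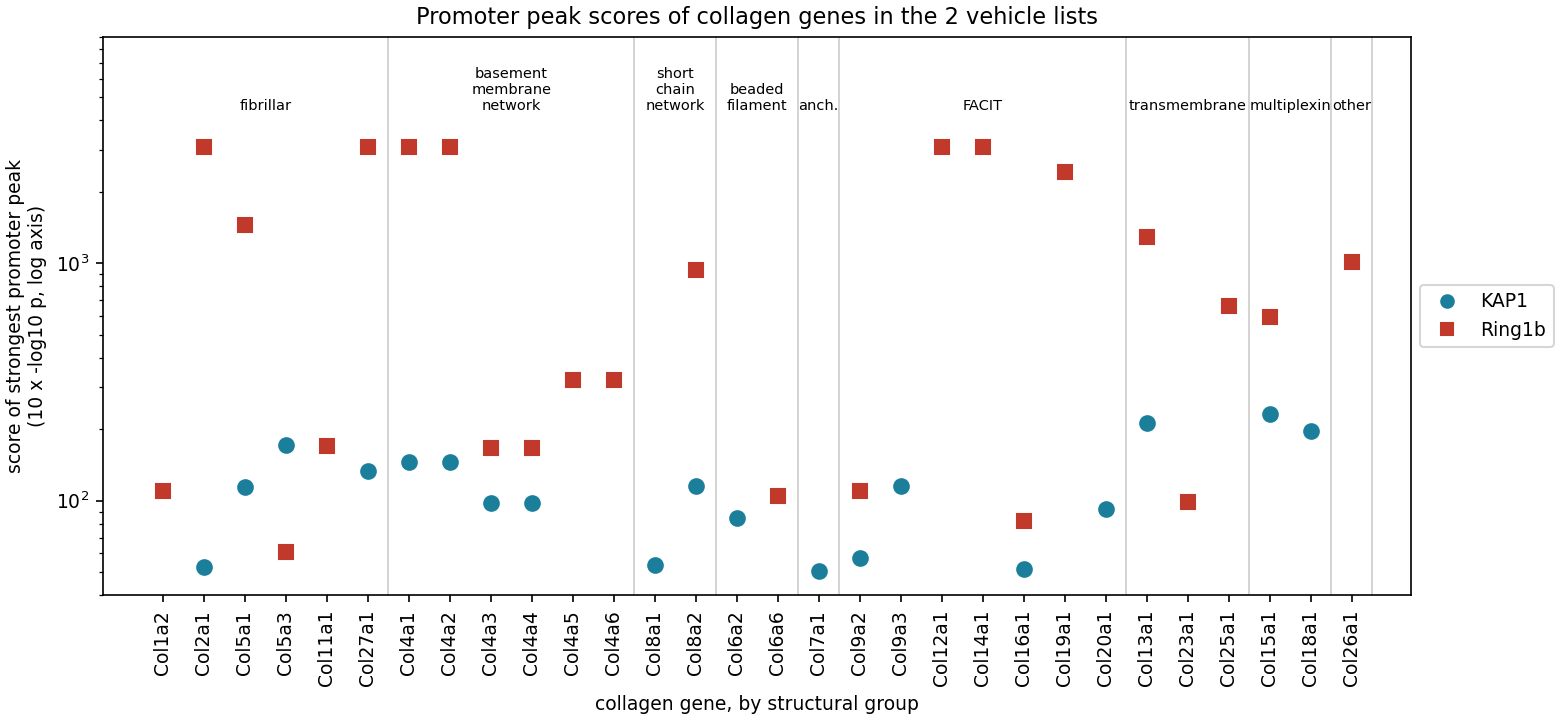
Score of the strongest peak in each promoter (y axis, 10 times -log10 p, log axis) for collagen genes with a promoter peak, by structural group (anch., anchoring fibril), with KAP1 as circles and Ring1b as squares. Scores of different lists are not on a common scale. Ring1b runs from 60.7 at Col5a3 to the tied score of 3100, and KAP1 from 50.5 at Col7a1 to 233 at Col15a1.

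At the 11 promoters with both proteins, the median Ring1b score was 933, against 211 over all promoters of that class. Of these, 3 stood at 3100 (27.3%), where 9.43% of all promoters of the class scored 3100 or more. The Ring1b peak was 2 kb or wider at 5 (45.5% against 20.5%). The KAP1 peaks at the same promoters had a median of 116, against 153 over all promoters with both. The KAP1 median at promoters with KAP1 alone was 92.6 against 139, and the Ring1b median at promoters with Ring1b alone was 491 against 595. At collagen promoters with both proteins the Ring1b median was thus above, and the KAP1 median below, that of all promoters of the class. Of the 11 KAP1 scores, 8 were still above the median of the whole KAP1 list, 96.2.

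The KAP1 summit lay inside the Ring1b peak at each of the 11 promoters with both proteins. The median width of these Ring1b peaks was 1778 bp, against 894 bp over all promoters of the class. No share over all such promoters is given here to set beside the 11. The distance between the 2 summits had a median of 135 bp, against 235 bp over all such promoters. At collagen promoters it was taken from the strongest peak of each protein. It ran from 2 bp at Col13a1, 15 bp at Col16a1, 21 bp at Col5a3 and 24 bp at Col9a2 to 878 bp at Col5a1, 1111 bp at Col27a1 and 1379 bp at Col2a1. The 3 widest separations were at Ring1b peaks over 2 kb wide, although Col13a1 and Col4a1 had peaks of that width with summits 2 and 255 bp apart. Col5a1 also had a weaker promoter KAP1 peak of 55.3. Its summit lay 542 bp past the start, near the Ring1b summit at 464 bp, so the 878 bp holds for the strongest KAP1 peak only. At Col2a1 the KAP1 peak was 796 bp wide inside a Ring1b peak of 4741 bp.

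Around the 10 promoters with Ring1b alone, the nearest KAP1 peak lay 8.45 kb (Col6a6) to 993 kb (Col4a6) from the window's middle, with a median of 26.2 kb. Over all 884 promoter rows of that class the median was 13.7 kb, and 29.5% had a KAP1 peak within 5 kb. None of the 10 collagen promoters did, which allows a share of up to 30.0%, so the difference from all promoters was not detectable with 10. Col11a1 had its nearest KAP1 peak at 8518 bp, Col26a1 at 12514 bp and Col14a1 at 22055 bp. Col1a2, Col19a1 and Col25a1 were farther off, at 95735, 90892 and 119668 bp.

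Over whole genes the classes shifted towards both proteins. By the deposited gene tables, 19 collagen genes had both (43.2%, against 25.7% of all genes). KAP1 alone was over 10 (22.7%, against 26.4%), and Ring1b alone over 5 (11.4%, against 1.85%). In all, 34 collagen genes (77.3%) had a gene row, against 54.0% of all genes. Among the 29 long collagen genes, 14 had both proteins (48.3%, against 43.6% of long genes), 5 had KAP1 alone (17.2%, against 29.1%) and 4 had Ring1b alone (13.8%, against 2.64%). A gene row existed for 23 of the 29 (79.3%, against 75.3%). All these shares are by symbol, so a gene whose row carries another name is missed. By direct overlap with RefSeq genes, a KAP1 peak lay in 70.5% of collagen genes and 69.6% of all genes. In long genes it lay in 72.4% and 89.7%. Ring1b peaks lay in 59.1% and 33.9%, or 69.0% and 57.2% in long genes. These shares were not tested.

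KAP1 peaks inside genes moved some genes into that class. Of the 10 genes with Ring1b alone at the promoter, 5 had both proteins over the gene (Col6a6, Col14a1, Col19a1, Col23a1 and Col26a1), where 43.2% of all genes of that promoter class and 54.2% of the long ones did. Col14a1 and Col19a1 each had a single KAP1 peak near the middle, scored 108 and 202. Col6a6 had 4, the strongest at 187, and Col23a1 had 4, the strongest at 227. Col1a2, Col11a1, Col12a1 and Col25a1 kept Ring1b alone, with no KAP1 peak in the gene, and Col4a6 has no gene row. Col25a1, the longest at 419.5 kb, had 1 Ring1b peak at its start and no KAP1 peak.

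Of genes with KAP1 alone at the promoter, Col9a3 and Col18a1 had both over the gene. In Col18a1 the Ring1b peak was weak (58.5) and lay 14.2 kb inside the gene on a KAP1 peak of score 279. The authors' deposited table for Col9a3 covers a span that reaches past it over Tcfl5, and the Ring1b region lies outside the RefSeq gene, so Col9a3 held KAP1 alone within its own bounds. Genes without a promoter row but with a gene row were Col1a1, Col5a2, Col6a5, Col11a2, Col24a1 and Col28a1 with KAP1 alone, Col4a5 with Ring1b alone, and Col6a3 with both. Col6a3 had 3 KAP1 peaks 3570 to 5637 bp from its start and a weak Ring1b peak (57.1) at 68.0 kb. Col1a1, listed with KAP1 alone, had a Ring1b peak of 159.8 that met a KAP1 peak of 137 inside the RefSeq gene, 639 bp from its higher end and past the end of the deposited span. Col24a1 had 3 KAP1 peaks in its body, the strongest at 307.

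Ring1b peaks of collagen genes clustered at starts. Of 32 gene and peak pairs in the 41 collagen genes whose strand is known, 27 (84.4%, interval 67.2% to 94.7%) lay in the first 10% of the gene, against 58.7% over all genes. A peak over the starts of a pair counts for each gene. The median distance from summit to start was 495 bp, against 992 bp over all genes, and 26 of the 32 (81.3%) lay within 2 kb, against 59.5%. In long collagen genes 20 of 23 pairs (87.0%, interval 66.4% to 97.2%) lay in the first 10%, against 60.3% of pairs in all long genes.

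The Ring1b peaks more than 2 kb from a start were few. Col8a2 had 2 strong ones in its body, scored 986.7 and 1100.15 and located 10.2 and 14.7 kb from the start, each on a KAP1 peak. Col23a1 had one of 155 at 147 kb, also on a KAP1 peak. The others were the peaks of Col6a3 and Col18a1 described above and the summit of the wide Col12a1 peak. That summit was 2237 bp from the RefSeq start, but the peak covers the middle of the gene's deposited promoter window. In all, 18 of the 31 Ring1b peaks in collagen genes (58.1%, interval 39.1% to 75.5%) overlapped a KAP1 peak, against 79.2% of Ring1b peaks in all genes. A Ring1b peak lay in 26 of the 44 genes (59.1%), where 33.9% of all genes and 57.2% of long genes held one; among long collagen genes it was 20 of 29 (69.0%).

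KAP1 peaks were spread along the genes. They numbered 123 in 31 collagen genes (70.5%), where 69.6% of all genes and 89.7% of long genes held one. Of 121 gene and peak pairs, 33 (27.3%, interval 19.6% to 36.1%) lay in the first 10%, against 33.5% over all genes and 25.9% in long genes. Within 2 kb of a start lay 25 (20.7%), against 30.8% and 16.4%. Per 100 kb of gene there were 2.26 KAP1 peaks in collagen genes and 4.48 over all genes, or 1.93 and 3.15 in long genes. Ring1b peaks numbered 0.570 and 0.953 per 100 kb, or 0.418 and 0.563 in long genes, so both proteins were sparser per length in collagen genes.

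**Figure D4:**
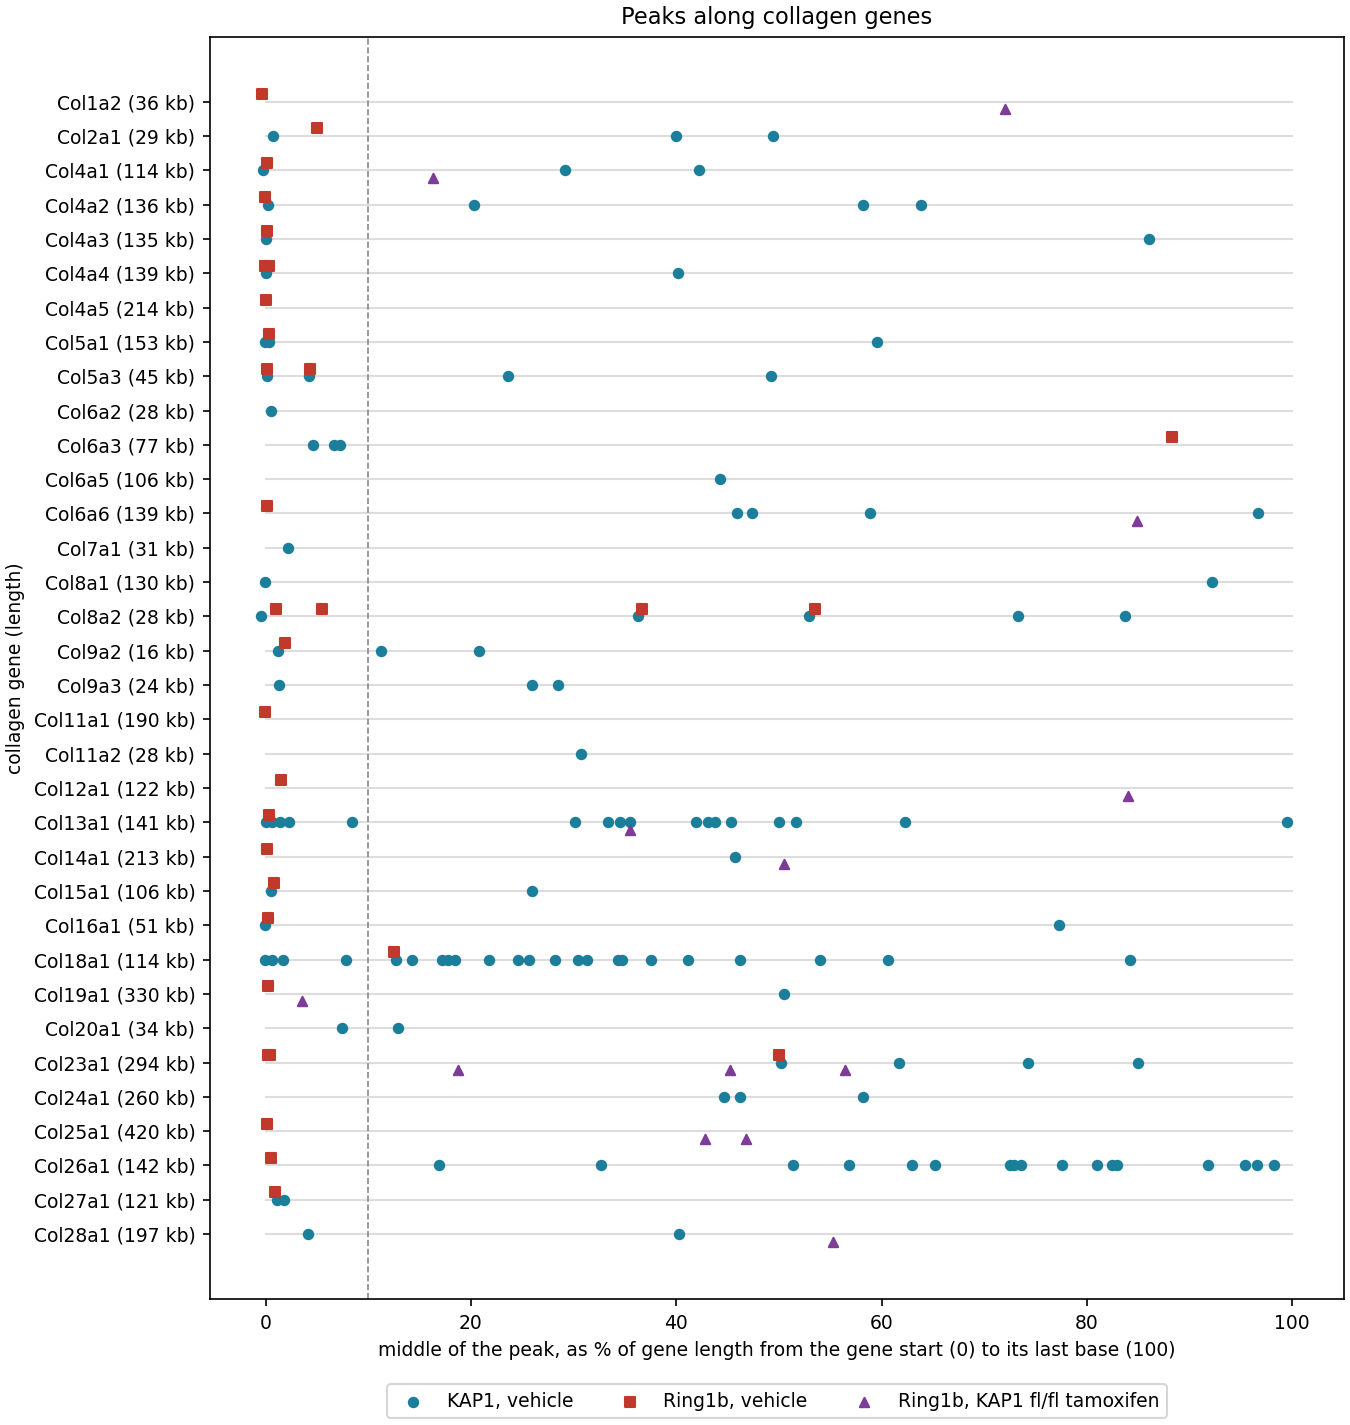
Middle of each peak (x axis, percent of gene length from the start at 0 to the last base at 100) in each collagen gene with a known strand and a peak (y axis, with gene length), for KAP1 (circles) and Ring1b (squares) in the vehicle lists and for the knockout list (triangles). The dashed line marks 10%. Of the Ring1b pairs, 27 of 32 lie before the line, while KAP1 fills the bodies of Col13a1, Col18a1 and Col26a1.

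The KAP1 peaks were uneven among genes, since Col18a1 with 23, Col13a1 with 17 and Col26a1 with 17 held 57 of the 123 (46.3%). The median gene held 2, and 13 genes held none. Without those 3 genes the density was 1.31 per 100 kb, and 37.5% of the remaining pairs lay in the first 10% of the gene. Col18a1, the source of endostatin, had 20.1 KAP1 peaks per 100 kb, and 136 of the 4878 long genes were denser. Its scores ran from 57.7 to 279 with a median of 104. Col13a1 had 12.1 per 100 kb, with scores from 69.99 to 556 and a median of 138, and Col26a1 had 12.0 with scores from 50.5 to 178 and a median of 79.1. The median long gene had 2.82.

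The 3 genes differed in where their KAP1 peaks lay. In Col13a1 the peaks fell into a run at the start and a stronger run in the body, which held scores of 556, 448, 309 and 273. In Col18a1 all but 3 of the 23 fell in the first 50% of the gene. In Col26a1 the peaks lay in the body and towards the end, with none in the first 10%, where its Ring1b peak of 1011 sat. Col8a2 had 5 KAP1 peaks in 27.5 kb, and Col23a1 had 4 in 294 kb.

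The knockout list held 13 peaks in 10 collagen genes (22.7%), where 14.3% of all genes and 35.5% of long genes held one. Among long collagen genes it was 9 of 29 (31.0%). Col23a1 had 3 of them, scored 87.5, 53.7 and 53.0, and Col25a1 had 2, scored 77.1 and 63.9. Col14a1 had one of 83.1, Col13a1 of 67.9, Col19a1 of 64.9, Col4a1 of 58.8, Col1a2 of 57.3, Col12a1 of 53.2, Col28a1 of 51.0 and Col6a6 of 50.5. Their median was 58.8, against 58.9 in the whole list, and they were 109 to 336 bp wide. Their scores were thus near the middle of that list.

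None of the 31 vehicle Ring1b peaks in collagen genes overlapped a knockout-list peak, which allows a share of up to 9.68%. Over all genes 0.257% of Ring1b peaks did. None of the 13 knockout-list peaks lay within 2 kb of a start (interval up to 24.7%), against 12.6% of pairs over all genes and 3.74% in long genes. The nearest was 11773 bp from the start of Col19a1. In Col13a1 the knockout-list peak overlapped the KAP1 peak of score 556, the strongest in any collagen gene. It was the only 1 of the 13 on a KAP1 peak (7.69%), against 17.5% of knockout-list peaks in all genes. No list sets Ring1b in KAP1 fl/fl tamoxifen cells against the same line given vehicle, so absence from the knockout list does not show a loss of Ring1b, and the difference of line cannot be told apart from that of KAP1.

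The CpG content of the promoters was read from 38 RefSeq windows of 300 bases, belonging to 35 of the 44 genes. No window was available for Col1a1, Col2a1, Col4a3, Col5a2, Col9a3, Col12a1, Col14a1, Col22a1 and Col26a1. Of these, Col2a1, Col12a1 and Col14a1 had promoter Ring1b peaks of 3100 and Col26a1 had 1011, so the medians leave out strong peaks. Each window took its gene's class by symbol or accession, so Col4a2 counts with both proteins and Col4a5 with Ring1b alone. The ratio of observed to expected CpG had a median of 0.665 at 11 windows with both proteins and 0.516 at 8 with Ring1b alone. It was 0.471 at 7 with KAP1 alone, from 5 genes, and 0.180 at 12 where there is no promoter row, from 11 genes. With KAP1 alone, Col6a2 and Col18a1 gave more than 1 window each, and those of Col6a2 overlap, so the 7 are not separate cases. The medians over all genes' promoters were 0.736, 0.647, 0.758 and 0.209. The collagen median with KAP1 alone was thus below that of its class, and the highest of their 7 was 0.557 at Col6a2. A ratio of at least 0.6 was found at 10 of 19 collagen promoters with Ring1b (52.6%, against 66.9% of all such promoters) and at 1 of 12 without a row, Col11a2 at 0.614.

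Among the windows available, the highest ratios were those of Col4a1 at 0.902, Col25a1 at 0.860, Col13a1 at 0.837, Col8a2 at 0.832, Col4a2 at 0.818 and Col5a1 at 0.809. All 6 windows carried Ring1b, and Col25a1 was the one among them without KAP1. The Col4a1 and Col4a2 windows overlap and share the peaks of a single paired promoter, so they are not separate cases. Of all collagen windows with a ratio of at least 0.6, 10 of 11 belonged to genes with Ring1b. Over all genes it was 3881 of 10054, with genes in more than 1 class left out of the 3881. The lowest were 0 at Col3a1, Col28a1 and one Col9a1 window, none of which has a promoter row. Some promoters with Ring1b were poor in CpG, such as Col4a6 at 0.172, whose peak lay on the Col4a5 side, and Col11a1 at 0.332.

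**Figure D5:**
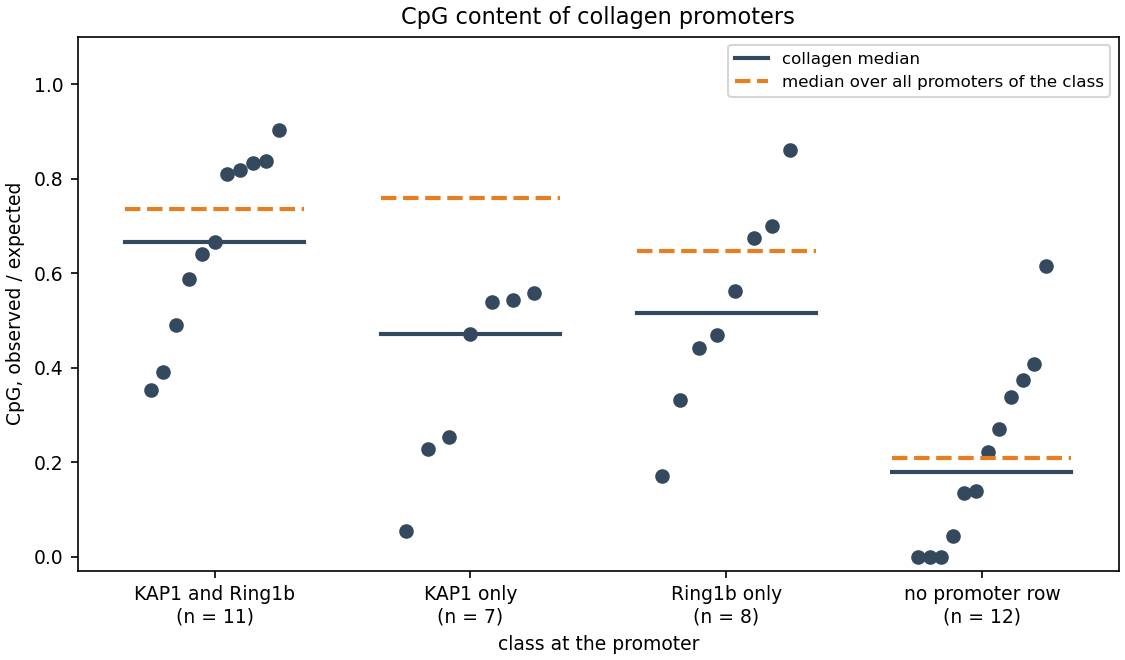
Ratio of observed to expected CpG (y axis) in 300-base promoter windows of collagen genes, by the gene's class at the promoter, by symbol or accession (x axis). Points are windows, solid lines are collagen medians and dashed lines are medians over the promoters of all genes in the class. Windows with KAP1 alone have a collagen median of 0.471 against 0.758, and those without a row have 0.180 against 0.209.

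Short motifs were counted on both strands in the same windows, as letters only. Matches of GGGCGG and TGCCGC can share bases. GGGCGG, the core that Sp1 binds, was in 60.5% of collagen windows and 47.6% of all windows. CCAAT, the letters bound by NF-Y, was in 34.2% against 38.4%. CCCTNCCCC was in 13.2% against 10.5% of all windows, TATAAA in 13.2% against 12.4%, and TGCCGC in 5.26% against 14.5%. None of these shares was tested. In the sequences above, GGGCGG is in the Col4a2, Col4a5, Col4a6 and Col25a1 windows and not in those of Col4a4 and Col3a1.

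The other genes that make, process and bind collagen were counted as lists, by symbol only, so a row under another name would be missed. Of 52 such genes, 28 had both proteins at a promoter, 8 had KAP1 alone, 4 had Ring1b alone and 12 have no row under their symbol. Over all genes the shares were 21.9% with both, 28.1% with KAP1 alone and 3.67% with Ring1b alone, and these also stand as background for each list that follows. The 4 with Ring1b alone were P4ha3, a prolyl hydroxylase subunit, Tll1, a procollagen C-proteinase, and the cross-linking enzymes Lox and Loxl2. All 9 basement membrane partners of type IV collagen had KAP1 at a promoter, and 7 of them, among them Lama1, Lamb1, Lamc1, Nid1 and Nid2, had both proteins. Of 11 hydroxylases, 4 had both (P4ha1, P4ha2, Plod1 and Plod2), and of 10 receptors, 5 had both (Itga1, Itga2, Itga11, Ddr1 and Mrc2). Of 9 genes of folding and secretion, 4 had both, among them Serpinh1, the collagen chaperone, and of 8 procollagen-processing genes, 6 had both, among them Bmp1.

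By symbol only, marker genes gave the following classes at promoters, where 49.6% of all genes had KAP1, 21.9% had both proteins and 3.67% had Ring1b alone. All 10 embryonic stem cell markers had KAP1, and 6 had both, among them Pou5f1 and Sox2, while Nanog, Klf4, Zfp42 and Dppa5a had KAP1 alone. Of 10 endoderm markers, 7 had both, with Sox17 and Sox7 among those with Ring1b alone, and Pdgfra in both classes by different promoters. Of 15 fibroblast markers, 8 have no row, among them Postn, Dcn and Lum, and 7 had both, among them Twist1 and Prrx1. Peaks give no expression, so the share of feeder cells was not measured and its part in the collagen peaks was not tested.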

How the data were processed

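Chromatin immunoprecipitation libraries of KAP1 and Ring1b, 1 per group, were analysed from the 3 peak lists and 6 gene and promoter tables that the authors deposited. Per the submitters' processing notes, the build was mm10 (GRCm38) and the tools included MACS 1.4.2 and Bowtie2, with bedtools 2.16.2 and CASAVA 1.8.2. The score of a peak, as the authors deposited it, is 10 times -log10 p for the library against its control, per the file headers. Replicates, read depth and per-library signal were not used here, so no test or standard deviation was computed.

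From these files, classes were counted by symbol over the 44 collagen and 21031 protein-coding RefSeq genes of GRCm38.p6. Peaks overlapped a gene by at least 1 bp, and a window is 1 kb on each side of a start. Strand came from the RefSeq promoter table for 35 collagen genes and otherwise from the position of the deposited window in the gene. A zero was bounded with 3 counts. Deposited gene spans begin about 1 kb below the RefSeq start on both strands (median difference -975 and -1000 bp), so genes on the minus strand gain sequence past their end. Of the regions of collagen promoters, 21 of 21 for Ring1b and 12 of 18 for KAP1 had the borders of a listed peak. Python 3.11.15, pandas 2.3.3, numpy 2.4.6, scipy 1.17.1 and matplotlib 3.10.9 were used, and counting was tested on simulated data. Genes are named by rule: the type IV genes, those with Ring1b at a promoter or a knockout-list peak, the 10 highest promoter KAP1 scores, the 5 with most KAP1 peaks, and those whose classes differ. The members and lists were chosen with earlier results of these data known. Col1a1, Col5a2 and Col22a1 have no known strand and were left out of positions.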

Additional observations from a re-analysis of the deposited data

How the results depend on the processing

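Over 12 results, 50 alternatives were run, of which 43 kept the value within 1.5 times (counts) or within its interval (shares) and 7 moved it. A reversal was not scored. Counting each gene once could not change the promoter counts, since no collagen gene is in more than 1 promoter class by symbol. Keeping only the upper 50% of scores in each list lowered the promoters with KAP1 without Ring1b from 6 to 3, the KAP1 peaks in collagen genes from 123 to 58, the Ring1b peaks from 31 to 20 and the knockout-list peaks from 13 to 6, as fewer peaks enter by construction. Counts that stayed the same could hide a change of genes. Under the upper 50% of scores Col2a1 fell to Ring1b alone, Col5a3 to KAP1 alone, and Col9a2 and Col16a1 to neither. Col1a2, Col6a6 and Col23a1 lost Ring1b at the promoter. The lowest score in the KAP1 list is 50.01, so the promoter KAP1 peaks of Col2a1 (52.7), Col16a1 (51.4), Col7a1 (50.5) and Col8a1 (53.6) lay near its floor. A window of 5 kb on each side raised the promoters with KAP1 without Ring1b to 11. For the wider window and the upper scores only collagen genes were counted. No share over all genes stands beside those counts, so the contrast with all genes was not checked there. Leaving out Col18a1, Col13a1 and Col26a1, an alternative chosen after seeing the data, lowered the KAP1 peaks to 66 and raised their share in the first 10% of the gene from 27.3% to 37.5%. No paired analysis was possible because each group has 1 library and no result comes from a test. Counts over 44 genes limit the precision of every share, and the interval of the 22.7% with Ring1b alone runs from 11.5% to 37.8%.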
